A study of Caenorhabditis elegans with 4 samples.

Results

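The genes described here are 10 genes of the methionine cycle and of phosphocholine synthesis in *C. elegans*, chosen by name from the 46745 sequence names of the deposited table. They are the S-adenosylmethionine (SAM) synthetases *sams-1*, *sams-3*, *sams-4* and *sams-5*, the S-adenosylhomocysteine hydrolase *ahcy-1*, the cystathionine beta-synthase *cbs-1*, the folate enzymes *mthf-1* and *mel-32*, and the phosphoethanolamine methyltransferases *pmt-1* and *pmt-2*. Of the 10 sequence names chosen, 9 were listed as given. The name given for *sams-1* was not listed, and this gene was taken by its symbol, which belongs to C49F5.1 in the Ensembl 115 annotation of the WBcel235 genome. The samples were whole wild-type animals of the Bristol strain N2, each a pool of adults, with 2 samples fed *L. paracasei* subsp. *paracasei* 2004 and 2 samples fed *E. coli* OP50. OP50 is the usual laboratory food of *C. elegans*. Both foods were given for 3 days, beginning 3 days after hatching. The labels place these cultures in S basal medium, whereas the study's methods describe nematode growth medium plates, and nothing states whether the samples of a food came from separate cultures. P-values therefore measure only the spread between these samples, which may be technical.

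SAM is made from methionine and ATP, and it donates methyl groups to histones, RNA, small molecules and phospholipid precursors. The S-adenosylhomocysteine left over is split into adenosine and homocysteine, which is either methylated back to methionine with a methyl group from folate or passed to cysteine by transsulfuration. Nematodes use SAM to methylate phosphoethanolamine to phosphocholine, a precursor of the membrane lipid phosphatidylcholine. In *C. elegans*, low supply from this route is known to activate the lipogenic transcription factor SBP-1.

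The deposited counts summed to 46350926 and 46339828 in the 2004 samples and to 44548901 and 50504029 in the OP50 samples. At these totals, 3 counts corresponded to 0.0594 to 0.0673 CPM (counts per 1000000 counts of the same sample). All 10 genes passed the filter of at least 0.5 CPM in at least 2 samples, as did 12505 genes in all. Each gene's count is the sum over its listed transcripts. Summed counts varied between the samples of a food with a coefficient of variation of 17.7%, against 50.4% for the counts of single transcripts. The tissue markers did not stay level between the foods. Summed intestinal markers reached 3060 and 2945 CPM in the 2004 samples, against 1126 and 1685 CPM in the OP50 samples, with 4 of 6 higher at an adjusted p under 0.1. The defining intestinal genes *elt-2* and *ges-1* were not among these 4, and the log2 fold change of *ges-1* was -0.69 (edgeR adjusted p = 0.122). Most of the intestinal sum was *asp-1*, at 2091 and 2141 CPM with 2004, against 776 and 1290 CPM with OP50. Germline markers summed to 5377 and 5002 CPM with 2004, against 3646 and 3273 CPM with OP50, and 3 of 6 were higher by the same measure. Muscle markers summed to 407 and 359 CPM with 2004, against 1189 and 1073 CPM with OP50, with 4 of 5 lower. The remaining muscle marker, *hlh-1*, lay the other way at 3.62 and 1.79 CPM with 2004, against 1.71 and 1.76 CPM with OP50. It did not pass the test (log2 fold change 0.57, edgeR adjusted p = 0.262). Neuronal markers summed to 243 and 247 CPM with 2004, against 287 and 296 CPM with OP50, with 3 of 6 lower and 1 higher. In whole animals, fewer cells of a type and less RNA per cell cannot be told apart, and the part of these shifts in the values below was not tested.

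At an adjusted p under 0.1 and a fold change over 2, the study's thresholds, 1 of the 10 genes was higher in animals fed 2004 and 0 were lower (edgeR's quasi-likelihood test, Benjamini-Hochberg adjustment over all genes tested). Over all 12505 genes the shares were 7.55% higher and 14.8% lower, so a count of 1 in 10 is close to the background. The gene called was *sams-5*, a SAM synthetase, at 8.06-fold. Without the fold threshold, *sams-4* was also higher and *pmt-2* was lower, which makes 2 higher and 1 lower, beside 23.9% and 25.2% of all genes. DESeq2 likewise called *sams-5* and no other of the 10. Both 2004 samples lay above both OP50 samples for 5 of the 10 genes and below them for 2. The corresponding shares of all genes tested were 37.5% and 33.7%. The median log2 fold change of the 10 genes was 0.01, and that of all genes was -0.03. For 9 of the 10 genes, the size of the log2 fold change was below 0.51, the median size over all genes.

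**Figure D1:**
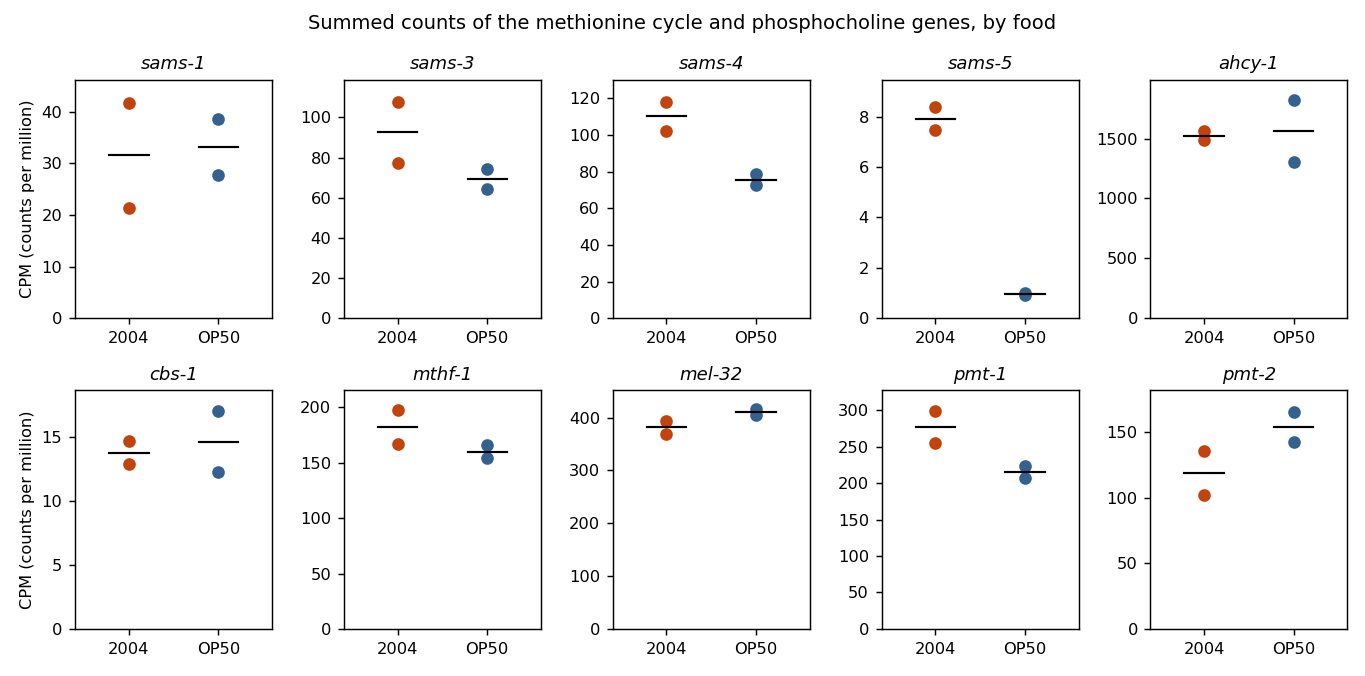
CPM of each of the 10 genes by food, 2004 at the left and OP50 at the right. Points are samples and lines are means of 2. *sams-5* lies at 7.46 and 8.39 CPM with 2004, well apart from 0.988 and 0.911 CPM with OP50, whereas *sams-1*, *ahcy-1* and *cbs-1* overlap between the foods.

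Levels can be compared between the genes only per length, here as mean CPM per kilobase of exonic sequence. *ahcy-1*, which removes S-adenosylhomocysteine, was the highest of the 10 at 992 in the 2004 samples and 1017 in the OP50 samples, at the 98.8th percentile of all genes tested. *mel-32*, a serine hydroxymethyltransferase, followed at 227 with 2004 and 244 with OP50, and *pmt-1* at 147 with 2004 and 114.4 with OP50. Next came *pmt-2* at 75.5 with 2004 and 97.8 with OP50, *mthf-1* at 66.5 with 2004 and 58.5 with OP50, *sams-4* at 58.4 with 2004 and 40.0 with OP50, and *sams-3* at 46.4 with 2004 and 34.7 with OP50. The low end held *sams-1* at 14.01 with 2004 and 14.7 with OP50, *cbs-1* at 6.001 with 2004 and 6.39 with OP50, and *sams-5* at 5.33 with 2004 and 0.638 with OP50. The order was the same with both foods. Within the OP50 samples no neighbours in this order overlapped. Within the 2004 samples, *pmt-2* overlapped *mthf-1*, *mthf-1* overlapped *sams-4*, and *cbs-1* overlapped *sams-5*.

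*sams-5* (T13A10.11) lies on chromosome IV at 6277433 to 6279522, on the reverse strand. It had 7.46 and 8.39 CPM in the 2004 samples, against 0.988 and 0.911 CPM in the OP50 samples, which corresponded to 346 and 389 counts with 2004 and 44 and 46 counts with OP50. The 2004 samples were high, the OP50 samples were low, and the samples of each food lay close together. The log2 fold change was 3.01 ± 0.31 (SE, n = 2 each; adjusted p = 6.22e-05 by edgeR), with a 95% interval of 2.33 to 3.69. The size of this change stood at the 97.7th percentile of all genes. The call held in 11 of 11 refits with other tools, scalings, filters or blocks, or without 1 sample, at a log2 fold change of 2.85 to 3.16. Even with 2004, the mean level of *sams-5* per length, at 5.33 CPM per kilobase, was the lowest of the 10 genes. Averaged over the 4 samples, and so with the OP50 samples included, its level per length stood at the 31.8th percentile of all genes tested.

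*sams-4* (C06E7.3) lies at 5844061 to 5846369 on the reverse strand of chromosome IV, and *sams-3* (C06E7.1) at 5848657 to 5850843 on the forward strand. The pair is transcribed away from each other across 2287 bases, with 1 annotated gene between them that is not protein-coding, and *sams-5* lies 427 kb from *sams-3*. *sams-4* had 118 and 102 CPM in the 2004 samples, against 78.5 and 72.5 CPM in the OP50 samples. Both 2004 samples were above both OP50 samples, and the gap between the foods was wider than the gap within either. The log2 fold change was 0.49 ± 0.14 (SE, n = 2 each; edgeR adjusted p = 0.0181), or 1.40-fold, with a 95% interval of 0.18 to 0.79. It passed the p threshold in 11 of 11 refits, the highest adjusted p being 0.0866, without replicate 1 of 2004.

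*sams-3* had 108 and 77.4 CPM with 2004, against 74.1 and 64.5 CPM with OP50. The foods did not overlap, but replicate 2 of 2004 was close to replicate 1 of OP50. At a log2 fold change of 0.35 ± 0.16, it did not pass the test (SE, n = 2 each; edgeR adjusted p = 0.1102; 95% interval -0.01 to 0.71). Over the refits its adjusted p lay between 0.00845 and 0.559, and 5 of 11 were under 0.1. *sams-1* (C49F5.1, chromosome X at 11965962 to 11969893, forward strand) is the synthetase most studied for lipid metabolism in *C. elegans*. It had 41.8 and 21.5 CPM with 2004, against 27.8 and 38.7 CPM with OP50. Replicate 1 of 2004 was the highest of the 4 samples and replicate 2 of 2004 the lowest, so the foods overlapped fully. The log2 fold change was -0.13 ± 0.23 (SE, n = 2 each; edgeR adjusted p = 0.675), and its 95% interval of -0.65 to 0.38 leaves out a 2-fold change either way. Leaving out 1 sample moved it between -0.60, without replicate 1 of 2004 (edgeR adjusted p = 0.0272), and 0.26, without replicate 2 of 2004.

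*sams-3*, *sams-4* and *sams-5* are close copies, and reads from one can be assigned to another. Their sums do not depend on that division. *sams-3* and *sams-4* together had 226 and 180 CPM with 2004, against 153 and 137 CPM with OP50, a log2 fold change of 0.42 ± 0.16 (SE, n = 2 each; edgeR adjusted p = 0.0577). With *sams-5* added the log2 fold change was 0.47 ± 0.16 (edgeR adjusted p = 0.0394), so the sum of the copies was higher with 2004 but under 2-fold. With *sams-1* added as well, the synthetases summed to 275 and 210 CPM with 2004, against 181 and 177 CPM with OP50 (log2 fold change 0.38 ± 0.16, edgeR adjusted p = 0.0858). All 3 sums were higher in both 2004 samples than in either OP50 sample.

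The make-up of the synthetase pool was compared as each gene's share of the 4 genes' counts per exonic length, which does not depend on scaling between samples. *sams-5* held 3.58% and 5.22% of the pool in the 2004 samples, against 0.725% and 0.693% in the OP50 samples. *sams-4* held the largest share in every sample, 44.7% and 50.1% with 2004 and 45.3% and 43.4% with OP50. *sams-3* held 38.5% and 35.9% with 2004, against 40.5% and 36.5% with OP50, and *sams-1* held 13.2% and 8.79% with 2004, against 13.5% and 19.4% with OP50. The foods were well apart for *sams-5* and overlapped for *sams-3* and *sams-4*. For *sams-1* they did not overlap, but replicate 1 of 2004 at 13.2% and replicate 1 of OP50 at 13.5% were nearly level. With 2 samples against 2, no exact permutation test can give a two-sided p below 0.333, so the shares are given as values.

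The deposited table lists single transcripts, 50 for the 10 genes, of which 35 had any count and 29 passed the filter. In *C. elegans*, the methyltransferase METT-10 is known to methylate an adenosine at a 3′ splice site of *sams-3*, *sams-4* and *sams-5* precursor RNA, which hinders splicing there and yields RNAs that keep intron sequence. Ensembl 115 annotates such RNAs as non-coding transcripts of these genes. At the same thresholds, edgeR called 2 of the 29 transcripts higher with 2004 and 1 lower, beside 4.24% and 7.13% of all 16577 transcripts tested. Both transcripts called higher were intron-containing transcripts of SAM synthetases, and all 3 calls were lost in several refits, as given below. Other intron-containing transcripts of *sams-3* and *sams-4* did not pass the test.

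C06E7.1c of *sams-3* keeps the whole intron 2, 369 bases at IV 5848949 to 5849317. It had 499 and 579 counts in the 2004 samples, against 80 and 183 counts in the OP50 samples. The 2004 samples were well above the OP50 samples. Its log2 fold change was 2.07 ± 0.41 (SE, n = 2 each; edgeR adjusted p = 0.0746). The coding transcript C06E7.1a had 4335 and 2843 counts with 2004, against 3049 and 2851 counts with OP50, and its foods overlapped (log2 fold change 0.24 ± 0.25, edgeR adjusted p = 0.569). The other non-coding transcripts of *sams-3* also keep intron sequence. C06E7.1b keeps 93 bases of intron 2 that reach the same 3′ splice site, and C06E7.1d keeps the whole intron 3. C06E7.1b had 126 and 128 counts with 2004, against 165 and 145 counts with OP50. Its CPM was lower in both 2004 samples (log2 fold change -0.33 ± 0.34, edgeR adjusted p = 0.561). C06E7.1d had 35 and 39 counts with 2004, against 8 and 78 counts with OP50. Neither passed the test, and C06E7.1d, under a mean of 1 CPM, was named after its counts were seen. In CPM, the non-coding transcripts made up 13.2% and 20.8% of *sams-3* with 2004, against 7.66% and 12.5% with OP50. The nearest of these were close, since the 95% Wilson intervals of replicate 1 of 2004 (12.3% to 14.2%) and replicate 2 of OP50 (11.4% to 13.6%) overlapped.

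T13A10.11b of *sams-5* keeps stretches of intron 3, 79 bases at 6278700 to 6278778 that reach the 3′ splice site, and 67 bases at 6278825 to 6278891. It had 269 and 372 counts with 2004, against 12 and 40 counts with OP50. Every 2004 count was several times every OP50 count. Its log2 fold change was 3.68 ± 0.65 (SE, n = 2 each; edgeR adjusted p = 0.0663). The coding transcripts of *sams-5*, summed after these values were seen and not tested, had 77 and 17 counts with 2004, against 32 and 6 counts with OP50. These overlapped between the foods. The non-coding share of *sams-5* was 77.7% (95% Wilson interval 73.1% to 81.8%) and 95.6% (93.1% to 97.3%) in the 2004 samples. In the OP50 samples it was 27.3% (16.3% to 41.8%) and 87.0% (74.3% to 93.9%). The OP50 samples disagreed far beyond these intervals, which cover counting error only, and the foods overlapped. Most of the counts by which *sams-5* was higher with 2004 were therefore assigned to a transcript that Ensembl 115 does not annotate as coding.

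C06E7.3b of *sams-4* keeps the whole intron 2, at IV 5845605 to 5845977, as C06E7.1c does in *sams-3*. It had 1340 and 1646 counts with 2004, against 1204 and 1066 counts with OP50, and did not pass the test (log2 fold change 0.36 ± 0.26, edgeR adjusted p = 0.408). The coding transcript C06E7.3a had 4140 and 3100 counts with 2004, against 2293 and 2598 counts with OP50 (log2 fold change 0.54 ± 0.15, edgeR adjusted p = 0.118). Both transcripts lay higher in both 2004 samples. The non-coding share of *sams-4* was 24.5% and 34.7% with 2004, against 34.4% and 29.1% with OP50, and overlapped. *mett-10* itself had 20.5 and 16.8 CPM with 2004, against 15.04 and 17.1 CPM with OP50 (log2 fold change 0.16 ± 0.17, edgeR adjusted p = 0.481), and these values overlapped too.

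**Figure D2:**
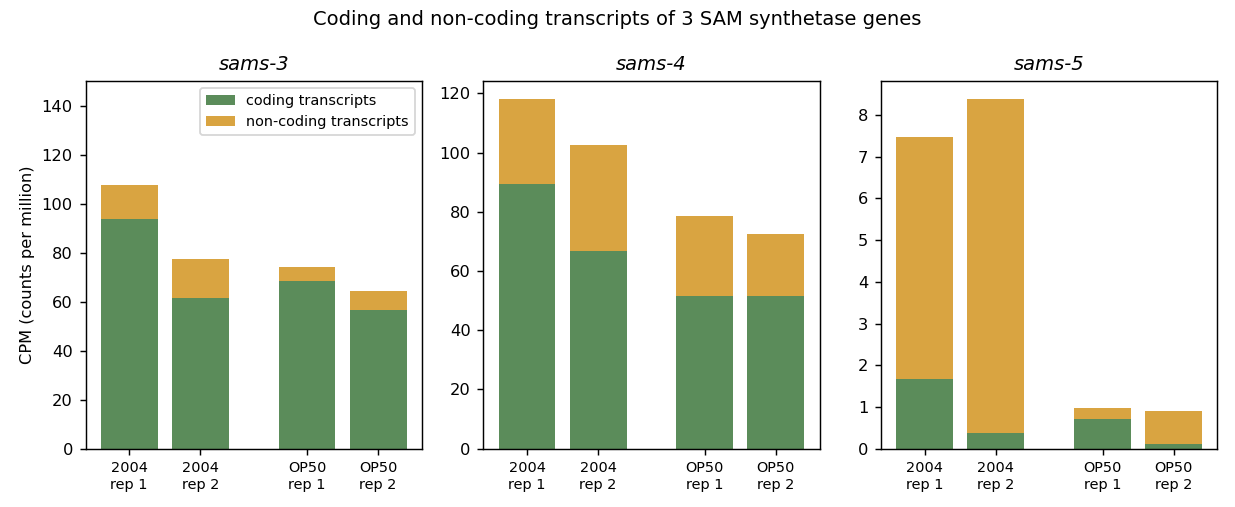
CPM of the coding and non-coding transcripts of *sams-3*, *sams-4* and *sams-5*, stacked, for each sample, with the 2004 samples at the left of each panel. Non-coding transcripts make up 77.7% and 95.6% of *sams-5* with 2004, and 27.3% and 87.0% with OP50.

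The calls on single transcripts rested on more spread than those on summed counts. C06E7.1c, T13A10.11b and the lower transcript of *mthf-1* had adjusted p-values from 0.108 to 0.197 in edgeR without a filter, with the replicate number as a block, and without replicate 1 or 2 of either food. They were called in DESeq2. Their directions did not change in these refits.

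*ahcy-1* (K02F2.2, chromosome I at 6836469 to 6838140, forward strand) had 1484 and 1562 CPM with 2004, against 1818 and 1307 CPM with OP50. The 2004 samples lay between the OP50 samples, and the log2 fold change was -0.10 ± 0.27 (SE, n = 2 each; edgeR adjusted p = 0.784; 95% interval -0.69 to 0.49). *cbs-1* (ZC373.1, chromosome X at 10054275 to 10057528, forward strand) directs homocysteine into transsulfuration. It had 14.7 and 12.9 CPM with 2004, against 12.3 and 17.03 CPM with OP50. Here too the 2004 samples lay between the OP50 samples, and the log2 fold change was -0.13 ± 0.19 (SE, n = 2 each; edgeR adjusted p = 0.601; 95% interval -0.56 to 0.29). For both genes a 2-fold difference lies outside the interval.

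*mthf-1* (C06A8.1, chromosome II at 7773904 to 7777823, reverse strand) encodes methylenetetrahydrofolate reductase, which makes the methyl donor of methionine synthase. It had 197 and 167 CPM with 2004, against 155 and 166 CPM with OP50. Replicate 2 of 2004 and replicate 2 of OP50 were nearly level, though the foods did not overlap. The log2 fold change of 0.13 ± 0.14 did not pass the test (SE, n = 2 each; edgeR adjusted p = 0.483). Its transcripts divided the count differently. C06A8.1b, which carries an additional exon of 155 bases within intron 1, had 230 and 133 counts with 2004, against 544 and 815 counts with OP50. It was low in both 2004 samples, and the log2 fold change was -1.92 ± 0.33 (SE, n = 2 each; edgeR adjusted p = 0.0656). The main transcript C06A8.1a had 8910 and 7594 counts with 2004, against 6343 and 7553 counts with OP50, and did not pass (log2 fold change 0.23 ± 0.11, edgeR adjusted p = 0.256). Both are annotated as coding.

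*mel-32* (C05D11.11, chromosome III at 6440145 to 6443000, reverse strand) supplies one-carbon units to folate from serine. It had 394 and 369 CPM with 2004, against 404 and 416 CPM with OP50. Each 2004 sample was slightly below each OP50 sample, and the log2 fold change was -0.16 ± 0.17 (SE, n = 2 each; edgeR adjusted p = 0.474).

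*pmt-1* and *pmt-2* act in sequence: PMT-1 adds the first methyl group to phosphoethanolamine and PMT-2 completes phosphocholine. *pmt-1* (ZK622.3, chromosome II at 5278090 to 5282523, reverse strand) had 298 and 256 CPM with 2004, against 223 and 207 CPM with OP50. Both 2004 samples were above both OP50 samples. The log2 fold change of 0.31 ± 0.16 did not pass the test (SE, n = 2 each; edgeR adjusted p = 0.152; 95% interval -0.05 to 0.66). *pmt-2* (F54D11.1, chromosome V at 4628580 to 4635263, forward strand) had 136 and 102 CPM with 2004, against 143 and 165 CPM with OP50. Both 2004 samples were below both OP50 samples, replicate 1 of each food lying close together. In edgeR the log2 fold change was -0.43 ± 0.15 (SE, n = 2 each; edgeR adjusted p = 0.0382; 95% interval -0.75 to -0.11). This passed the p threshold in 10 of 11 refits. Without replicate 2 of 2004 it was -0.26 at an adjusted p of 0.465 in edgeR.

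Within each sample, the ratio of *pmt-2* to *pmt-1* per exonic length was 0.543 and 0.476 with 2004, against 0.763 and 0.953 with OP50. The foods did not overlap, at 0.509 ± 0.0474 with 2004 and 0.858 ± 0.135 with OP50 (SD, n = 2 each). A ratio within a sample shows that the 2 genes differed unequally between the foods, and does not show which of them moved.

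**Figure D3:**
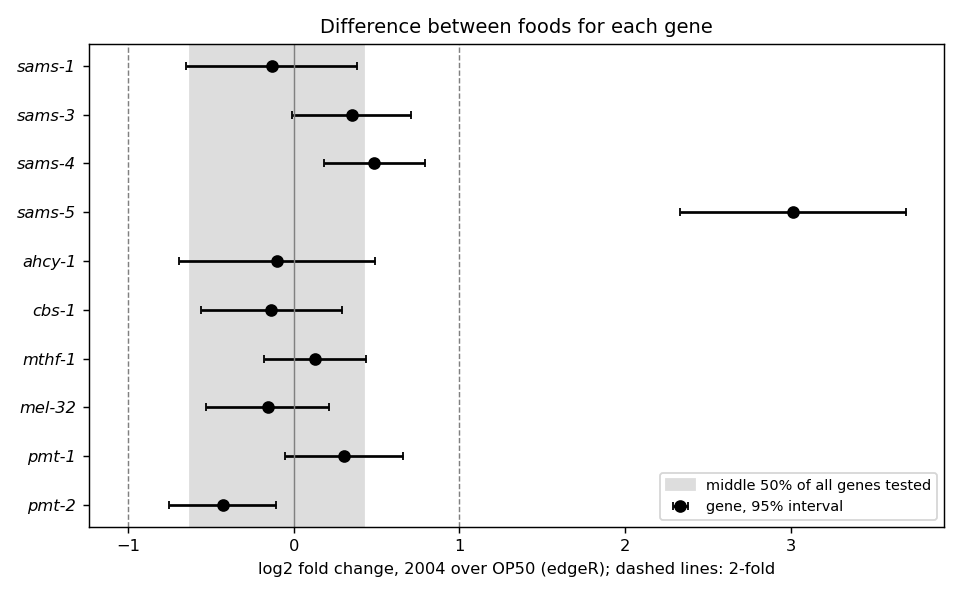
Log2 fold change of 2004 over OP50 for each of the 10 genes, with 95% intervals from edgeR. The grey band runs between the quartiles of all genes tested, from -0.63 to 0.42, and the dashed lines mark 2-fold. *sams-5* at 3.01 stands beyond the 2-fold line, and the intervals of *sams-4* and *pmt-2* leave out 0.

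Single transcripts of several members swung between samples of the same food by far more than the sum of the gene differed. ZK622.3a.1 of *pmt-1* had 1753 and 9729 counts in the 2004 samples, against 7220 and 995 counts in the OP50 samples. ZK622.3d.1 had 10297 and 32 counts with 2004, against 72 and 8149 counts with OP50, the opposite pattern. Both transcripts were thus high in 1 sample of each food and low in the other.

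In *mel-32*, C05D11.11a.1 had 46 and 12748 counts with 2004, against 10952 and 35 counts with OP50. C05D11.11b.3 had 9632 and 222 counts with 2004, against 2103 and 10080 counts with OP50. In *pmt-2*, F54D11.1.2 had 2964 and 23 counts with 2004, against 29 and 2426 counts with OP50, while F54D11.1.1 had 3325 and 4698 counts with 2004, against 6321 and 5922 counts with OP50. In each of these genes the gain of 1 transcript went with the loss of another in the same sample. K02F2.2.2 of *ahcy-1* had 16943 counts in replicate 1 of 2004 and 84, 110 and 91 counts in replicate 2 of 2004 and replicates 1 and 2 of OP50. C49F5.1.3 of *sams-1* had 470 and 0 counts with 2004, against 285 and 342 counts with OP50, so part of the low value of *sams-1* in replicate 2 of 2004 lay in that transcript. Transcripts that differed over 10-fold between the 2004 samples, with at least 100 counts in the higher, numbered 6 of 24 listed in *pmt-1*, 3 of 6 in *mel-32*, and 1 each in *pmt-2*, *ahcy-1* and *sams-1*. Between the OP50 samples there was 1 each in *pmt-1*, *mel-32* and *pmt-2*. None of these transcripts was called between the foods by edgeR.

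**Figure D4:**
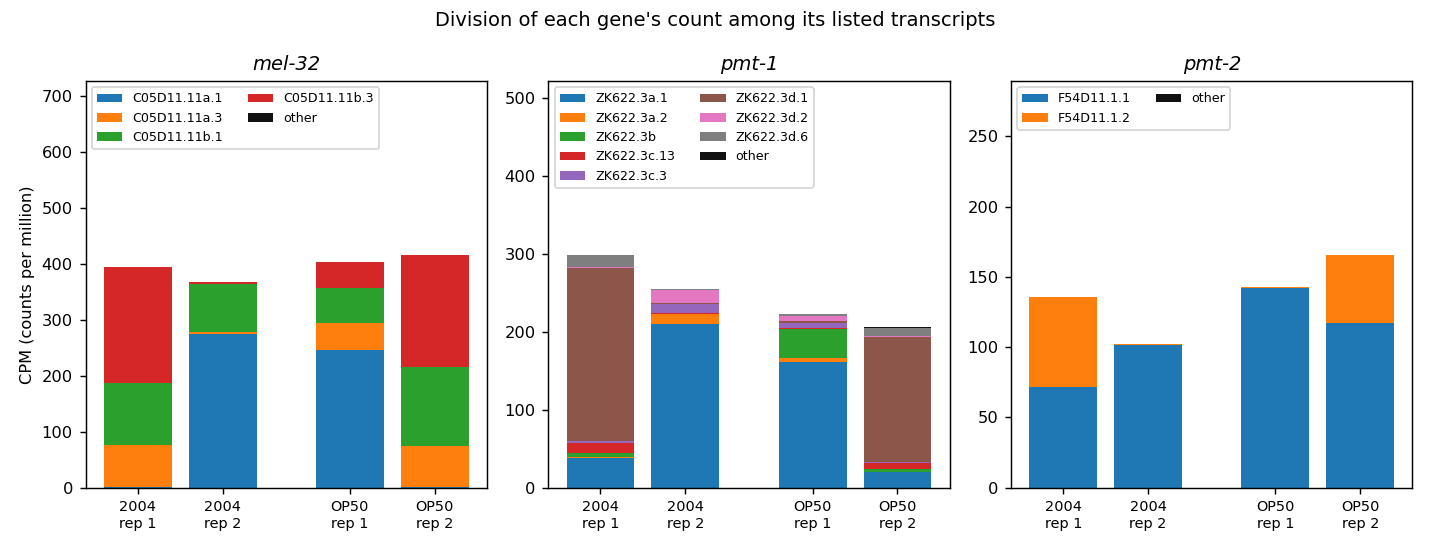
CPM of the listed transcripts of *mel-32*, *pmt-1* and *pmt-2*, stacked, for each sample, with the 2004 samples at the left of each panel. The height of each stack, which is the gene's summed CPM, differs far less between samples of 1 food than its division among transcripts, as for ZK622.3d.1 with 10297 and 32 counts in the 2004 samples.

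The 10 genes were set beside 7 lists of other genes of the same pathways. Of 92 genes named in these lists, 88 were matched and 84 passed the filter, of which 4 were higher and 15 were lower with 2004 by edgeR at the thresholds above. The shares of all genes are 7.55% and 14.8%. At any fold, 17 were higher and 20 lower, beside 23.9% and 25.2% of all genes. Genes named below at an adjusted p alone, or as not called, were picked after their values were seen.

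Of 7 genes of methionine synthase and cobalamin handling, 1 was called higher and 1 lower, and the list's median log2 fold change was -0.11. *mrp-5*, an intestinal exporter of heme that also moves cobalamin, had 452 and 412 CPM with 2004, against 88.4 and 99.0 CPM with OP50 (log2 fold change 2.15 ± 0.16, edgeR adjusted p = 7.26e-06). *pmp-5*, an ABC transporter, was lower, at 4.36 and 3.34 CPM with 2004 and 7.56 and 31.5 CPM with OP50. Its log2 fold change lay between -3.02 without replicate 1 of OP50 and -1.14 without replicate 2 of OP50. The methionine synthase reductase *mtrr-1* was higher by 0.69 ± 0.15 on the log2 scale (edgeR adjusted p = 0.00486), under 2-fold. The methionine synthase *metr-1* itself had 185 and 160 CPM with 2004, against 137 and 157 CPM with OP50, and did not pass (edgeR adjusted p = 0.319).

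Of 12 tested genes of transsulfuration and cysteine metabolism, 1 was called higher and 2 lower, at a median of -0.20. The cystathionine gamma-lyases that follow *cbs-1* were the lower ones. *cth-2* had 38.5 and 29.9 CPM with 2004, against 104 and 174 CPM with OP50 (log2 fold change -2.06 ± 0.19, edgeR adjusted p = 3.33e-05), and *cth-1* had 6.34 and 5.83 CPM with 2004, against 12.3 and 24.99 CPM with OP50. For each of them the 2004 samples were below the OP50 samples, whereas *cbs-1* overlapped. *cysl-2*, of the cysteine synthase family, was higher at 98.2 and 77.6 CPM with 2004, against 40.6 and 30.8 CPM with OP50. Without replicate 2 of OP50 its log2 fold change was 0.95, under 2-fold.

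Of 13 tested folate genes, 0 were called higher and 2 lower by edgeR, and the median was 0.02. On p alone 2 more were higher and *dao-3*, a folate enzyme, was lower (log2 fold change -0.60, edgeR adjusted p = 0.00865). *folt-2*, of the folate transporter family, had 17.9 and 10.96 CPM with 2004, against 49.1 and 162 CPM with OP50 (log2 fold change -2.90 ± 0.40, edgeR adjusted p = 0.000449). The OP50 samples differed widely between themselves, yet both were above both 2004 samples. Without replicate 2 of OP50 the log2 fold change was -1.94, and without replicate 1 of OP50 it was -3.48. *atic-1*, a folate-dependent enzyme of purine synthesis, had 26.4 and 22.2 CPM with 2004, against 46.3 and 57.4 CPM with OP50.

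Of 17 tested genes of choline and phosphatidylcholine synthesis, 0 were called higher and 3 lower by edgeR, with 2 higher at an adjusted p alone, and the median was 0.05. The lower genes were all near the filter: the choline kinase *cka-2* at 0.734 and 0.367 CPM with 2004 and 2.18 and 2.42 CPM with OP50, *pcyt-2.2*, an enzyme of the CDP-ethanolamine route, at 1.47 and 0.820 CPM with 2004 and 2.36 and 2.63 CPM with OP50, and the neuronal choline transporter *cho-1* at 0.928 and 0.518 CPM with 2004 and 2.04 and 2.14 CPM with OP50. *cka-2* passed the filter only through the OP50 samples, where it is high. The sum of the neuronal markers given above was lower in both 2004 samples, as *cho-1* was, although the marker *unc-119* was higher in both. The part of these markers in the value of *cho-1* was not tested. Without replicate 2 of 2004, *pcyt-2.2* was not called (log2 fold change -0.84, edgeR adjusted p = 0.206). *pcyt-2.1*, far more abundant, had 135 and 124 CPM with 2004, against 64.8 and 62.4 CPM with OP50, a log2 fold change of 0.97 ± 0.13 that passed on p alone (edgeR adjusted p = 0.000394). *pcyt-1*, of the enzymes that activate phosphocholine after PMT-2, had 30.0 and 27.8 CPM with 2004, against 23.95 and 26.1 CPM with OP50, and did not pass (edgeR adjusted p = 0.392).

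Of 7 tested regulators, *scp-1*, the SREBP cleavage-activating protein, was called higher, at 46.5 and 32.7 CPM with 2004 and 14.7 and 18.7 CPM with OP50 (log2 fold change 1.19 ± 0.17, edgeR adjusted p = 0.000476). *sbp-1* was lower on p alone, at 19.4 and 25.1 CPM with 2004 and 27.3 and 34.4 CPM with OP50 (log2 fold change -0.50 ± 0.18, edgeR adjusted p = 0.0462). *nhr-114*, a nuclear receptor that activates methionine cycle genes when flux through the cycle is low, was also lower on p alone (log2 fold change -0.77 ± 0.23, edgeR adjusted p = 0.0219), as was the nuclear receptor *nhr-68* with foods that overlapped. *mdt-15*, a Mediator subunit that acts with SBP-1, was higher on p alone, at 158 and 139 CPM with 2004 and 102 and 95.8 CPM with OP50 (log2 fold change 0.53 ± 0.14, edgeR adjusted p = 0.0138). The list thus had 2 genes higher and 3 lower at any fold. Of 6 genes listed with lipogenesis under SBP-1, the stearoyl-CoA desaturases *fat-7* and *fat-6* were called lower. *fat-7* had 13.9 and 15.9 CPM with 2004, against 58.1 and 68.2 CPM with OP50, and *fat-6* had 164 and 185 CPM with 2004, against 327 and 380 CPM with OP50. In both genes the 2004 samples were far below the OP50 samples, but *fat-6* was under 2-fold without replicate 1 of 2004, at -0.90 on the log2 scale. The fatty acid synthase *fasn-1* was lower on p alone. Neither *pod-2* nor *fat-5* passed the test. *pod-2*, abundant in every sample, had 909 and 985 CPM with 2004, against 743 and 646 CPM with OP50 (log2 fold change 0.39 ± 0.22, edgeR adjusted p = 0.169). *fat-5* lay the other way, at a log2 fold change of -0.36 ± 0.18 (edgeR adjusted p = 0.1245). *acs-2* was higher on p alone with foods that overlapped. *acs-2* encodes an acyl-CoA synthetase known for fatty acid oxidation, not for lipogenesis.

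**Figure D5:**
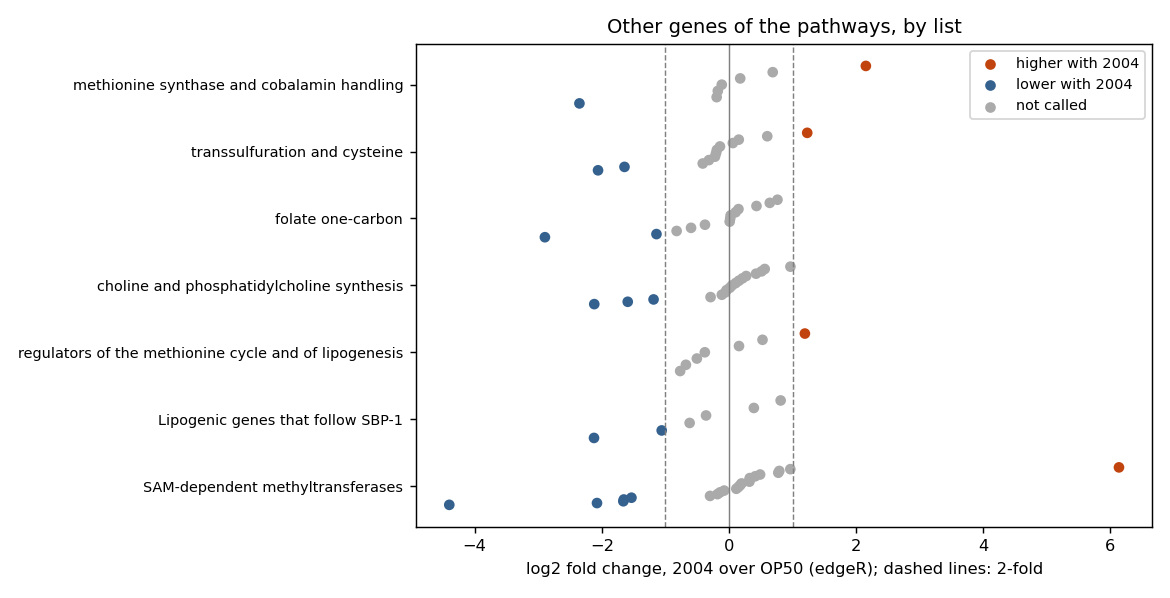
Log2 fold change of 2004 over OP50 for the 84 tested genes of the 7 lists, with dashed lines at 2-fold. Each point is a gene, coloured by its call in edgeR, and 4 genes are called higher and 15 lower. The point farthest to the right is *comt-2*, which had 8 and 5 counts in the OP50 samples.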

How the data were processed

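The authors trimmed the reads with Trim Galore 0.6.4, aligned them to WBcel235 with HISAT2 2.1.0, used SAMtools 1.7 for sorting and StringTie 2.1.1 for counting, per the methods and the submitters' processing notes. The deposited values are whole-number counts per transcript without normalization. StringTie divides reads that overlapping transcripts have in common, and strand use is not given in the sources used here, so overlapping and near-identical genes may share counts. *sams-3* and *mthf-1* overlap a gene on the opposite strand by 18 and 11 exonic bases.

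Counts of 57834 transcripts were summed over 46745 sequence names, of which 46450 (99.4%) matched the Ensembl 115 annotation, the source of symbols, positions and exonic lengths. Genes that reached 0.5 CPM in 2 or more samples were tested with edgeR 4.0.16 (quasi-likelihood, TMM) in R 4.3.3, with Benjamini-Hochberg adjustment over all of them and no covariate. Transcripts were tested likewise. Standard errors come from the F statistic. The alternatives were DESeq2 1.42.0, other size factors, filters and thresholds, the replicate number as a block, and leaving out each sample. The members, lists and tests were chosen with earlier results of these data known. All members, every called gene of a list up to 6, and member transcripts with a mean of at least 1 CPM were to be named, and any other gene or transcript named was picked after its values were seen. A chi-square test of summed counts gave 33.4 per degree of freedom between the 2004 samples and 75.3 between the OP50 samples, far over sampling noise. Each was counted as a sample, although this test cannot tell whether the spread is technical. The scripts were tested on simulated data. Of the listed pathway genes, *sqrd-2*, *pcyt-2*, *lpd-1* and *mett-5* were not matched.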

Additional observations from a re-analysis of the deposited data

How the results depend on the processing

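Each result was recomputed with 1 choice changed at a time. Of the 10 genes, *sams-5* was called in all 11 refits and no other gene passed both thresholds in any of them, and with no fold threshold 2 genes were higher and 1 lower. With 1 sample left out, the log2 fold change of *sams-1* ranged from -0.60 to 0.26, that of *ahcy-1* from -0.41 to 0.24 and that of *cbs-1* from -0.29 to 0.007, each crossing 0, and that of C06E7.1a, the coding transcript of *sams-3*, from -0.018 to 0.484. Summed with *sams-3* and *sams-4*, *sams-5* stood at 0.47, under 2-fold. In the lists, glmTreat against 2-fold called 2 higher and 9 lower, and no fold threshold gave 17 higher. Of the transcripts, 0 were higher and 0 lower without a filter, and leaving out 1 sample gave 0 to 1 higher and 0 to 2 lower. Without division by exonic length, the share of *sams-4* in OP50 was 42.2%, that of *sams-5* in OP50 was 0.530%, and the ratio of *pmt-2* to *pmt-1* was 0.427 with 2004 and 0.719 with OP50. The cause of these differences was not tested.

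Deviations from the group means correlated at -0.13 between samples with the same replicate number. This gives no sign of pairing by number, but 2 samples per food cannot exclude it. With the replicate block, 1 gene was higher and 0 lower, and 0 transcripts were called in either direction. A crossed pairing, added after seeing the data, called the same numbers. With 2 samples per food, the 95% intervals of *sams-1*, *ahcy-1* and *cbs-1* include 0, and differences of the sizes inside them were not excluded.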

Other observations

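Enzymes that use SAM made up the largest of the lists, with 22 tested methyltransferases of 24 named. By edgeR, 1 was called higher with 2004 and 5 lower, beside 7.55% and 14.8% of all genes, at a median log2 fold change of 0.16. At any fold 7 were higher and 5 lower, beside 23.9% and 25.2% of all genes, so these counts are near the background. *comt-2*, of the catechol O-methyltransferase family, had 477 and 468 counts with 2004, against 8 and 5 counts with OP50. It passed the filter only through the 2004 samples, where it is high, and was not tested when either of them was left out. Nor was it tested with a minimum of 10 counts in every sample, where 0 genes of the list were called higher. Its relative *comt-4* had 14 and 0 counts with 2004, against 143 and 148 counts with OP50. It passed only through the OP50 samples and was not tested when either of them was left out. The log2 fold change of *comt-4* moved from -10.18 without replicate 1 of 2004 to -3.42 without replicate 2 of 2004. *comt-3* had 4.98 and 6.11 CPM with 2004, against 23.3 and 21.96 CPM with OP50 (log2 fold change -2.08 ± 0.22, edgeR adjusted p = 6.91e-05). *comt-5*, *anmt-2* and *anmt-3* were lower too, by log2 fold changes of -1.66, -1.65 and -1.53, and *anmt-2* lay between -2.25 without replicate 1 of 2004 and -1.20 without replicate 2 of 2004. The methyltransferases *anmt-1*, *coq-3*, *coq-5* and *homt-1* did not pass the test.

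Of the 8 histone lysine methyltransferases in this list, 5 were higher on p alone, 0 were lower and 3 did not pass. At any fold, 23.9% of all genes were higher and 25.2% lower. The group was formed after its values were seen, so its count was not tested against these shares. *set-2* had 91.2 and 75.7 CPM with 2004, against 45.9 and 47.8 CPM with OP50 (log2 fold change 0.78 ± 0.13, edgeR adjusted p = 0.00105). *met-1* had 116 and 98.0 CPM with 2004, against 54.6 and 50.6 CPM with OP50, and *mes-4* had 101 and 82.5 CPM with 2004, against 47.6 and 54.7 CPM with OP50. *met-2* and *mes-2* were higher by 0.49 and 0.41 on the log2 scale. The 3 that did not pass were *set-17*, *set-25* and *set-32*, at log2 fold changes of -0.08, 0.12 and 0.15. *set-2*, *mes-2* and *mes-4* act in the germline, and the germline markers stood higher in both 2004 samples than in either OP50 sample. The part of that shift in these values was not tested.

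The arginine methyltransferase *prmt-5* was higher on p alone by 0.32 on the log2 scale, whereas the abundant *prmt-1* and *fib-1* did not pass the test. *prmt-1* had 832 and 932 CPM with 2004, against 1135 and 950 CPM with OP50, and *fib-1* had 832 and 904 CPM with 2004, against 1061 and 825 CPM with OP50.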
